A study of Mus musculus with 10 samples.

Results

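The nuclear genes for subunits of complexes II, III, IV and V of the mitochondrial respiratory chain, with cytochrome c, were examined in the cochlea of old mice that had or had not received nicotinamide riboside (NR). The members were the protein-coding genes named Sdha to Sdhd, Uqcr-, Cyc1, Cycs, Cox5 to Cox8 or Atp5-, which gave 48 gene models under 47 names among the 54532 models of the count files. Of these, 4 belonged to complex II, 9 to complex III with Cyc1, 1 was the cytochrome c gene Cycs, 13 were general or testis genes of complex IV, 3 were its muscle isoforms Cox6a2, Cox7a1 and Cox8b, and 18 belonged to complex V. Atp5s (factor B) and Cox7a2l (a supercomplex factor) match the names but are not classic subunits, and Cox4i1, Cox4i2 and Ndufa4 are subunits of complex IV whose names lie outside the rule. NR is a vitamin B3 form that cells turn into NAD+, and the study asked how it affects gene expression in the ageing cochlea.

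RNA was sequenced from the cochlea of 12-month-old mtKeima mice, 1 library per mouse. The 5 NR mice received 7 mg/ml (24 mM) NR in their drinking water for 10 months, starting at 2 months of age, and the 5 Vehicle mice received regular water. All 10 mice carried the mt-Keima reporter, a pH-sensitive fluorescent protein sent to mitochondria by a targeting sequence of COX VIII, on a mixed genetic background, and per the study's methods they carried neither the age-related hearing loss allele of cadherin 23 nor the C57BL/6J mutation of Nnt, whose enzyme makes mitochondrial NADPH. Each replicate was a separate mouse, and the RNA came from the whole dissected cochlea, in which less RNA per cell and fewer cells of a type cannot be told apart.

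The respiratory chain passes electrons from NADH and succinate to oxygen and pumps protons, and ATP synthase, or complex V, uses the proton gradient to make ATP. Complex II, succinate dehydrogenase, is encoded wholly in the nucleus, while complexes III, IV and V combine nuclear subunits with a few subunits made inside mitochondria. In heart and skeletal muscle several complex IV subunits exist as muscle isoforms that take the place of the ubiquitous ones. In the cochlea, the stria vascularis, hair cells and spiral ganglion neurons are known for a high demand for ATP.

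The total count was 17060379 to 22931581 in NR libraries and 20004667 to 24419230 in Vehicle libraries, and the members took 0.930% to 1.02% and 0.908% to 1.02% of it. The labels call the mice female, yet all 10 libraries held more reads of each of the Y-linked genes examined (444 or more) than of Xist (8 or fewer), and the study's methods describe male mice. Libraries NR 3 and NR 5 stood apart in 31 skeletal muscle markers, whose summed level was 1534 and 1390 CPM there (counts scaled to a common library total with TMM factors), against 198 to 317 CPM in the other NR libraries and 221.9 to 302 CPM in Vehicle libraries. Markers of cochlear cells were present in every library, with summed levels of 135 to 441 CPM for hair cells and 1137 to 2465 CPM for supporting cells. The supporting cell list held 6 genes of 7 that were lower in NR at an unadjusted p of 0.05, and the stria vascularis list 5 of 8. Vehicle 3 and Vehicle 4 had the highest summed levels of these lists, 2426 and 2465 CPM for supporting cells and 2356 and 3620 CPM for stria. The part of these cell markers in the results below was not tested.

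Apart from the muscle isoforms, the 42 tested members had log2 fold changes of -0.09 to 0.19 in NR against Vehicle cochlea. Of 45 members with enough reads to test, Cox6a2 alone was higher in NR at an unadjusted p of 0.05 (2.22% of the members, against 4.83% of all 18329 tested genes), and 0 members were lower (4.88% of all tested genes). After Benjamini-Hochberg adjustment over all tested genes, edgeR's quasi-likelihood test called 0 members, as it called 0% of all genes, and the smallest adjusted p among members was 0.451. The Wald test of DESeq2 called Cox6a2 higher (3.5% of all genes it tested) and Cox7a1 lower (3.08%) at an unadjusted p of 0.05, and 0 members after adjustment (0.52%). In 0 members did the 5 NR mice all lie on one side of the 5 Vehicle mice, a separation found in 1.65% of tested genes (0.769% with NR higher and 0.878% with NR lower). The members without reads to test were the testis isoforms Cox7b2, with 0 to 3 reads per library, and Cox8c, with 0 reads, and a duplicate model of Atp5o, with 0 reads.

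The log2 fold changes of the 42 tested members other than the muscle isoforms had standard errors of 0.040 to 0.155. The median log2 fold change was 0.02, close to the median of -0.01 over all tested genes. A log2 fold change above 0 was seen in 30 of the 42 (71.4%), against 47.1% of all tested genes, and 0 of these 30 passed the test. Other mitochondrial groups leaned the same way, with 75.7% of complex I genes above 0. The share was 61.0% for the mitochondrial ribosome and 92.3% for the mitochondrial genome. In 40 of the 42 members the 95% interval lay within 0.3 of no change on the log2 scale. The exceptions were Cox6b2, a testis isoform (-0.33 to 0.35), and Atp5s (-0.02 to 0.41). The limit of 0.3 was not part of the planned tests. The upper ends for Cox5b (0.292) and Cox7b (0.286) lay just within it, so the count depends on the limit.

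**Figure D1:**
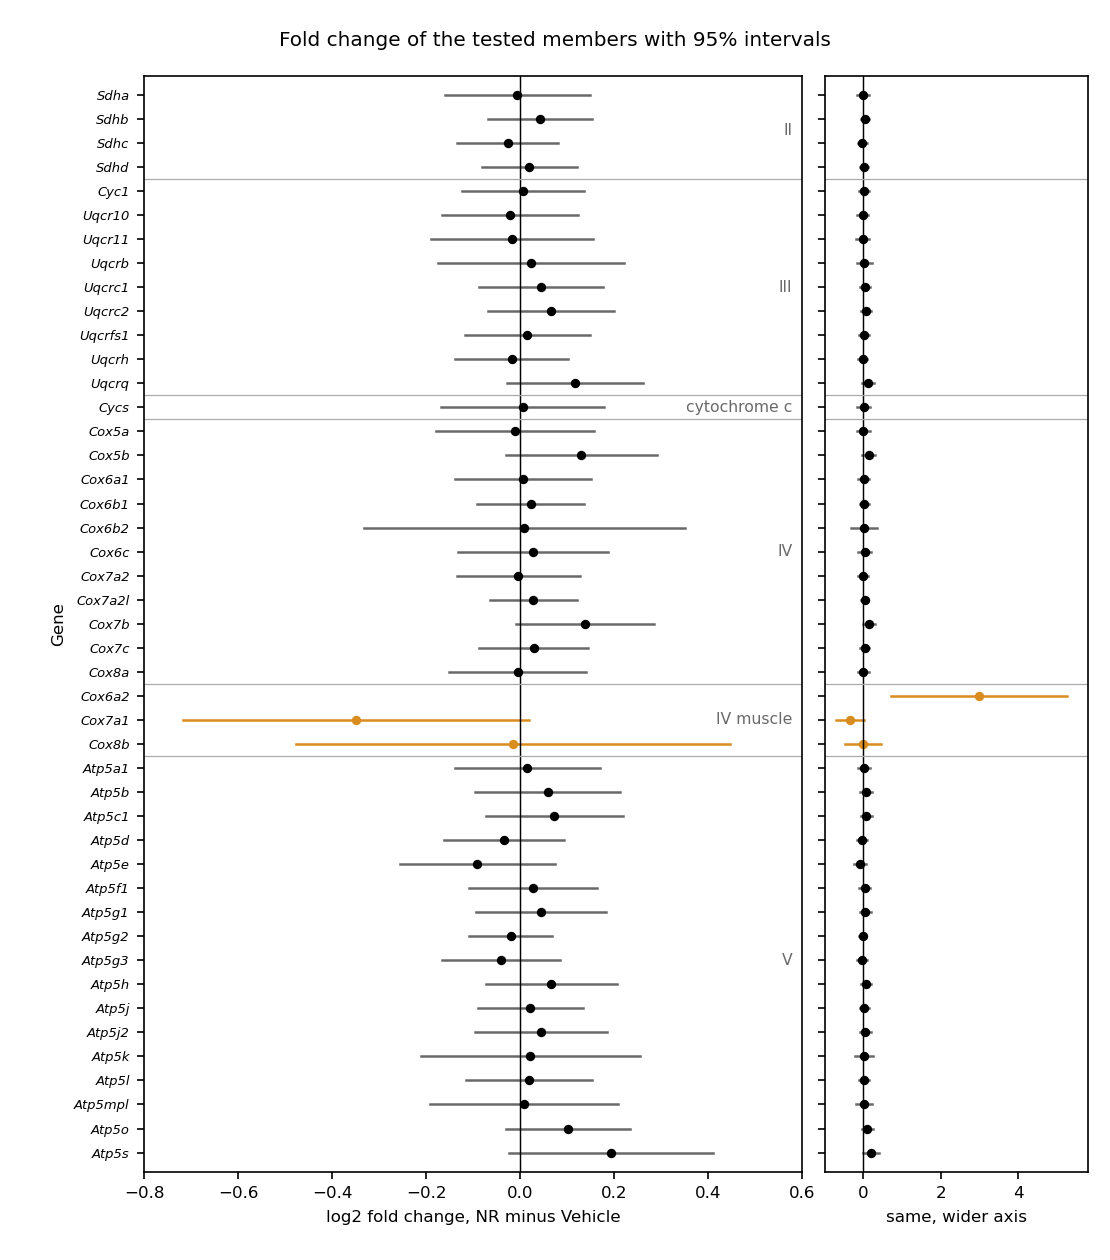
Log2 fold change (NR minus Vehicle, x axis) of the 45 tested members, listed on the y axis by complex, with 95% intervals from the edgeR fit; the right panel repeats the values on a wider axis so that Cox6a2 is visible. Points of the 42 members that are not muscle isoforms lie between -0.09 and 0.19, while the muscle isoforms (orange) have the widest intervals of complex IV.

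Complex II, which oxidises succinate, had 4 of 4 members tested and 0 past the threshold, with log2 fold changes of -0.03 to 0.04. The share past it over all tested genes was 9.71% in either direction. Sdha, the flavoprotein that holds the succinate site, had the highest level per kilobase of transcript (104 CPM per kb). Its level in NR 1 to NR 5 was 379, 459, 442, 438 and 426 CPM, and in Vehicle 1 to Vehicle 5 it was 386, 428, 430, 441 and 467 CPM. The lowest mouse of each group was its replicate 1, and the groups overlapped over nearly their whole range (429 ± 30.1 against 431 ± 29.3 CPM, SD, n = 5 each). The log2 fold change of Sdha was -0.01 (SE 0.07, adjusted p = 0.986, edgeR). Sdhc, a membrane anchor, had the lowest level of the complex (39.2 CPM per kb). It was at 124, 135, 124, 124 and 124 CPM in NR mice and at 117, 135, 131, 132 and 128 CPM in Vehicle mice. NR 2 stood above the other NR mice and level with Vehicle 2, the highest Vehicle mouse, the groups overlapped, and the log2 fold change was -0.03 (SE 0.05, adjusted p = 0.874, edgeR).

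Complex III, which passes electrons from ubiquinol to cytochrome c, had 9 members tested with log2 fold changes of -0.02 to 0.12 and a median of 0.02. None of the 9 passed the test, as against 9.71% of all genes in either direction. Uqcr10, a small accessory subunit, was highest per kilobase (210 CPM per kb), and was at 113, 114, 132, 128 and 122 CPM in NR mice and 113, 130, 124, 115 and 136 CPM in Vehicle mice. Uqcrc2, a core subunit, was lowest (59.4 CPM per kb), and was at 144, 174, 153, 158 and 147 CPM in NR and 136, 157, 149, 145 and 154 CPM in Vehicle. The groups of each gene overlapped, with log2 fold changes of -0.02 (SE 0.07) and 0.07 (SE 0.06). Of the bases of Uqcrc2 exons, 19.7% are shared with Pdzd9 on the other strand, and the counting took no account of strand. Cyc1 (cytochrome c1) and Uqcrfs1 (the Rieske iron-sulfur protein), which carry electrons within the complex, had log2 fold changes of 0.01 (SE 0.06) and 0.02 (SE 0.06). Cycs, the soluble carrier between complexes III and IV, was at 105 ± 10.4 CPM in NR and 105 ± 9.0 CPM in Vehicle mice (SD, n = 5 each).

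The 11 tested complex IV genes other than the muscle isoforms had log2 fold changes of -0.01 to 0.14, with a median of 0.02. Past the threshold were 0 of these, against 9.71% of all tested genes in either direction. Complex IV, cytochrome c oxidase, reduces oxygen to water, and its nuclear subunits surround a catalytic core made in mitochondria. Cox7b, a small membrane subunit, was at 154, 157, 174, 168 and 144 CPM in NR mice and 136, 152, 141, 135 and 160 CPM in Vehicle mice. It was the member with the largest difference among these 11 genes, 4 NR mice lay above 4 Vehicle mice, and Vehicle 5 and NR 5 made the groups overlap. Its log2 fold change was 0.14 (SE 0.07, 95% interval -0.01 to 0.29, adjusted p = 0.536, edgeR). Cox5b, a zinc-binding matrix subunit, was at 173, 201, 208, 201 and 179 CPM in NR and 167, 197, 170, 160 and 186 CPM in Vehicle mice. Here NR 2, NR 3 and NR 4 lay above every Vehicle mouse and the other NR mice among them, and the log2 fold change was 0.13 (SE 0.07, adjusted p = 0.586, edgeR). With library totals in place of TMM factors, Cox7b, Cox5b and the complex III subunit Uqcrq passed the unadjusted threshold, at log2 fold changes of 0.17, 0.16 and 0.14. That scaling also raised the number of all genes higher in NR at this threshold, to 1188 from 886 with TMM factors.

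The muscle isoforms of complex IV were Cox6a2, Cox7a1 and Cox8b. Muscle isoform Cox6a2 was at 0.386, 0.358, 15.97, 1.92 and 11.8 CPM in NR 1 to NR 5 and at 1.89, 0.584, 0.728, 0.265 and 0.371 CPM in Vehicle 1 to Vehicle 5. These levels rested on 369 reads in NR 3, 204 in NR 5, 44 in NR 4 and 38 in Vehicle 1, and on 6 to 18 in the other 6 libraries. NR 3 and NR 5 were thus far above the rest, NR 4 was level with Vehicle 1, and NR 1 and NR 2 lay within the Vehicle range. The log2 fold change was 2.99 (SE 1.04, unadjusted p = 0.0147, adjusted p = 0.451, edgeR's quasi-likelihood test). An exact two-sided permutation test of the CPM values over all labelings of the mice gave p = 0.206 (means 6.09 ± 7.30 and 0.767 ± 0.651 CPM, SD). With NR 3 and NR 5 left out, an alternative chosen after the data were seen, the log2 fold change was 0.24 (unadjusted p = 0.750, adjusted p = 0.969, edgeR). Of Cox6a2 exon bases, 10.3% overlap Itgad on the other strand.

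Cox7a1 had a lower mean in NR mice (15.6 ± 3.81 CPM) than in Vehicle mice (19.9 ± 2.51 CPM, SD, n = 5 each). It was at 9.93, 16.6, 20.6, 15.7 and 15.5 CPM in NR mice and at 16.3, 23.0, 18.9, 21.2 and 20.2 CPM in Vehicle mice. NR 1 was the lowest of all, NR 3 lay among the Vehicle mice, NR 2 lay just above Vehicle 1, and the groups overlapped. The log2 fold change of -0.35 (SE 0.17, 95% interval -0.72 to 0.02) missed the threshold in edgeR (unadjusted p = 0.0609, adjusted p = 0.533) and passed it in DESeq2 (unadjusted p = 0.0491, adjusted p = 0.481). In edgeR it was -0.22 without NR 1 (unadjusted p = 0.113, adjusted p = 0.759) and -0.49 without NR 3 and NR 5 (unadjusted p = 0.0248, adjusted p = 0.914).

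Cox8b was the most abundant of these muscle genes and did not separate the groups. It was at 25.1, 44.6, 37.6, 45.02 and 22.0 CPM in NR mice and at 26.5, 40.0, 36.1, 31.4 and 42.4 CPM in Vehicle mice. NR 1, NR 5 and Vehicle 1 were low, and the highest were NR 4 and NR 2. The log2 fold change was -0.01 (SE 0.21, 95% interval -0.48 to 0.45, adjusted p = 0.987, edgeR). This interval includes differences in either direction, and the smallest detectable difference was not computed.

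The ubiquitous partners of these isoforms overlapped between the groups. Cox6a1 was at 362, 389, 380, 393 and 348 CPM in NR mice and at 342, 394, 349, 369 and 410 CPM in Vehicle mice. Cox7a2 was at 125, 128, 137, 141 and 124 CPM in NR mice and at 129, 137, 120, 126 and 144 CPM in Vehicle mice. Cox8a was at 357, 373, 411, 420 and 354 CPM in NR mice and at 356, 395, 394, 377 and 400 CPM in Vehicle mice. In each of the 3 genes the groups spanned much the same range, with log2 fold changes of 0.01 (SE 0.07), -0.00 (SE 0.06) and -0.01 (SE 0.07), and the sign changed for Cox7a2 and Cox8a with total counts in place of TMM factors.

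**Figure D2:**
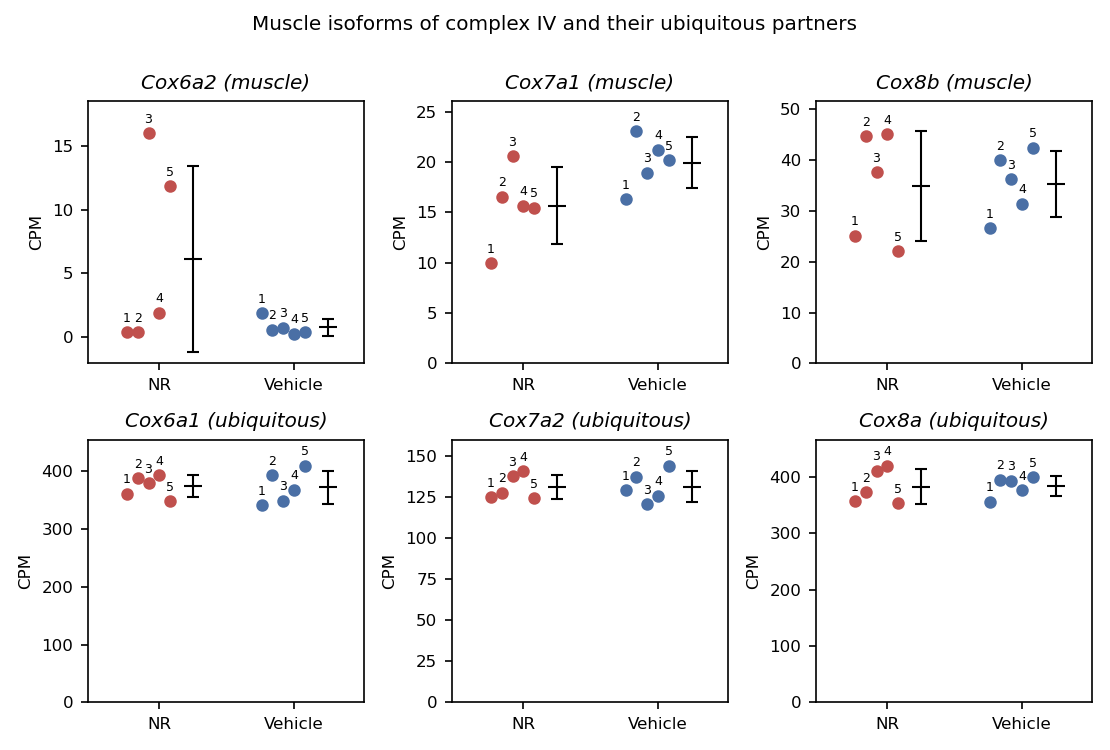
CPM (y axis) of the muscle isoforms of complex IV (top) and their ubiquitous partners (bottom) in each mouse, numbered by replicate, with the mean and SD of each group in black. Cox6a2 is high in NR 3 (15.97) and NR 5 (11.8) and below 2 CPM in the other 8 mice, while the partners overlap between groups.

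The balance of each isoform pair was measured in every mouse as the log2 ratio of CPM per kb, with a pseudocount of 0.1. The mean log2 ratio of Cox6a2 to Cox6a1 was -7.26 ± 2.52 in NR and -9.04 ± 1.06 in Vehicle (SD, n = 5 each). For Cox7a1 to Cox7a2 it was -2.28 ± 0.34 and -1.90 ± 0.18, and for Cox8b to Cox8a it was -2.92 ± 0.40 and -2.87 ± 0.21. Exact two-sided permutation tests of these differences of 1.78, -0.37 and -0.05 gave p = 0.214, 0.0476 and 0.786, and 0.321, 0.143 and 0.786 after Benjamini-Hochberg adjustment over the 3 pairs. As a share of the pair, Cox7a1 made up 12.3% to 20.9% in NR mice and 18.2% to 22.9% in Vehicle mice. Cox8b made up 8.59% to 15.3% and 10.1% to 13.8%, while Cox6a2 reached 4.16% in NR 3 and 3.38% in NR 5 and was 0.566% or less elsewhere. The shares of Cox7a1 and Cox8b in these cochleae were therefore well above that of Cox6a2 in every mouse.

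The level of Cox6a2 went with that of the skeletal muscle markers across mice, and the difference between this relation and those of Cox7a1 and Cox8b was not tested. The markers were skeletal muscle genes, among them Acta1 (skeletal actin) and Myh1 (a fast myosin). They had 15 of 28 tested genes higher in NR at an unadjusted p of 0.05 and a median log2 fold change of 1.47. A log2 fold change above 0 was seen in 25 of the 28. Acta1 was at 287 CPM in NR 3 and 124 CPM in NR 5, against 29.6 CPM in NR 4 and 12.2 CPM in Vehicle 1. Over the 10 mice the log2 level of Cox6a2 and the mean log2 level of the 31 markers had Pearson's r = 0.972 and Spearman's rho = 0.770 (permutation p = 0.00041 and 0.0128, 100000 permutations, and 0.00123 and 0.0385 after adjustment over the 3 isoforms). Without NR 3 and NR 5, the mice farthest from the median of the marker level, r was 0.857, and on deviations from the group means over all 10 mice it was 0.967. For Cox7a1 r was 0.02 and rho -0.14 (permutation p = 0.966 and 0.706), and for Cox8b r was -0.31 and rho -0.07 (permutation p = 0.390 and 0.868), and without those mice r was -0.08 and 0.09. On deviations from the group means r was 0.47 for Cox7a1 and -0.32 for Cox8b. NR 3 and NR 5 were the highest mice for Cox6a2 and for the markers alike, and the part of muscle tissue in the Cox6a2 difference was not tested. In brown fat Cox7a1 and Cox8b are also known to be expressed, and its marker Ucp1 was at 3.85 CPM in NR 2 and at 0.199 CPM or less in the other 9 mice. The brown fat list as a whole spanned 55.9 to 96.0 CPM in NR and 56.0 to 85.6 CPM in Vehicle mice, with 1 of 5 tested genes, Cidea, higher in NR at the unadjusted threshold (log2 fold change 1.75, SE 0.57). Heart markers were low throughout, at 23.5 to 34.4 CPM in NR and 15.0 to 42.9 CPM in Vehicle mice over 7 genes. The adipocyte list had 4 of 9 tested genes higher at that threshold, with sums of 121 to 214 CPM in NR and 101 to 126 CPM in Vehicle mice. Counts past the threshold were 0 of 8 for hair cells, 1 of 4 for fibrocytes (lower), 1 of 8 for spiral ganglion neurons and 1 of 8 for bone (higher), and 0 for Schwann cells, B cells, neutrophils and red cells. The share over all tested genes was 9.71% in either direction. The supporting cell, stria, hair cell, fibrocyte and red cell lists had 0 genes with a log2 fold change above 0. Their medians were -0.70, -0.56, -0.46, -0.41 and -0.14. Summed hair cell markers were highest in Vehicle 3 and Vehicle 4 (395 and 441 CPM).

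**Figure D3:**
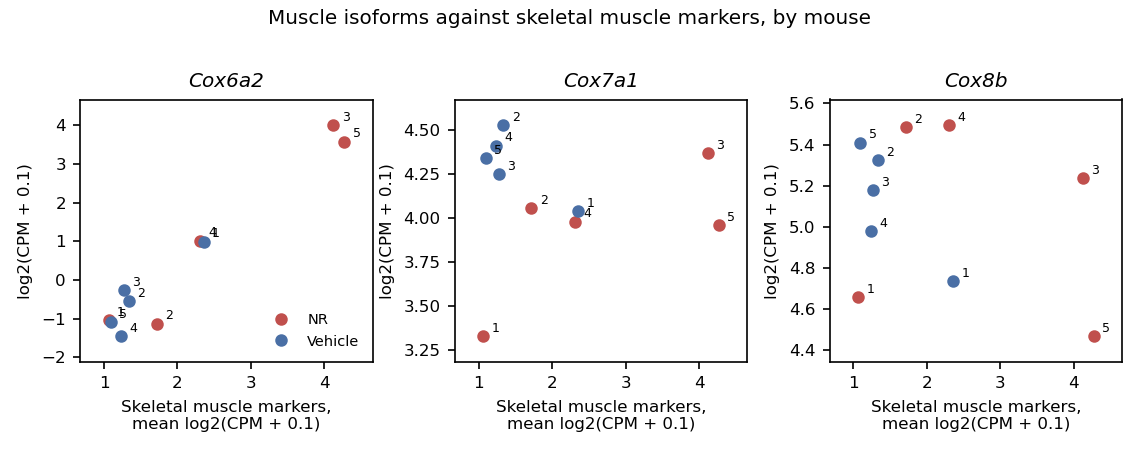
Log2(CPM + 0.1) of Cox6a2, Cox7a1 and Cox8b (y axis) against the mean log2(CPM + 0.1) of 31 skeletal muscle markers (x axis), 1 point per mouse, numbered by replicate. Cox6a2 is higher in mice with more marker RNA (r = 0.972), and r over the 10 mice is 0.02 for Cox7a1 and -0.31 for Cox8b.

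The sequences upstream of isoform genes of complex IV are shown so that muscle isoforms can be read beside their ubiquitous partners. RefSeq promoters were used, and none is printed for Cox6a2. Each run is the 250 bases before the RefSeq transcription start, read 5′ to 3′ on the strand of the gene in build GRCm38.p6, with letters that match a searched motif in capitals. Cox6a1 lies at chr5:115348959-115349208 (minus strand), Cox7a1 at chr7:30183921-30184170 (plus), Cox7a2 at chr9:79759854-79760103 (minus), Cox8a at chr19:7217617-7217866 (minus) and Cox8b at chr7:140900447-140900696 (minus). Sdhd, at chr9:50603850-50604099 (minus), is added as the complex II gene whose promoter held NRF1 and ETS matches together.
Cox6a1: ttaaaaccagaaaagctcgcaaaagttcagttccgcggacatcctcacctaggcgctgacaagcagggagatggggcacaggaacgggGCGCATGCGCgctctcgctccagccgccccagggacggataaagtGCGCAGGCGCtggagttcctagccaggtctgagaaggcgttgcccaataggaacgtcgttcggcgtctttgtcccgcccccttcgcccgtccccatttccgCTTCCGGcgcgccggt
Cox7a1: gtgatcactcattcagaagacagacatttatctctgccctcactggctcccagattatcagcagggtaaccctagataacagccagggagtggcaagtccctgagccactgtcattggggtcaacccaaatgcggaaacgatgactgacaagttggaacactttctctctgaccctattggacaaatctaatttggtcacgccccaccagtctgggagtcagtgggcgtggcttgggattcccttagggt
Cox7a2: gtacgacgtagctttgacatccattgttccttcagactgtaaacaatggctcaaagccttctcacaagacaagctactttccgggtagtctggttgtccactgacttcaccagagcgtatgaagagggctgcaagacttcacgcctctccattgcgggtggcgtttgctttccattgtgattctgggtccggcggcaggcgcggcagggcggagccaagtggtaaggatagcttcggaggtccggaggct
Cox8a: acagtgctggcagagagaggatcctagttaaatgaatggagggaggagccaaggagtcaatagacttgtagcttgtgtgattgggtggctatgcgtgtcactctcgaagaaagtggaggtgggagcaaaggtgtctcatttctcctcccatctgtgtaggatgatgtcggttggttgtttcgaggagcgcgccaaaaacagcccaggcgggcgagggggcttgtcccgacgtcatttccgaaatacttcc
Cox8b: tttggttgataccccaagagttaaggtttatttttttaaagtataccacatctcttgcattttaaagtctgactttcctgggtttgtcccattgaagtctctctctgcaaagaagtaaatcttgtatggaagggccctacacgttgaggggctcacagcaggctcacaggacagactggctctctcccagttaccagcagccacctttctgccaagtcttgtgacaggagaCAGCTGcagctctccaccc
Sdhd: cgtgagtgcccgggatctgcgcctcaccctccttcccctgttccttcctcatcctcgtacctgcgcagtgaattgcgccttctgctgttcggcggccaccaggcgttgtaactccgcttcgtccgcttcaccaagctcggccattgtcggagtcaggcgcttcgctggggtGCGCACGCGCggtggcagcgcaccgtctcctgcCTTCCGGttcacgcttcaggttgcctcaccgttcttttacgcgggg

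The motifs were searched on both strands, over 300 bases from 250 before to 50 after the start: NRF1 (GCGCA, any base, GCGC) and ETS (CCGGAAG), whose factors are known for driving nuclear respiratory genes, YY1 (AAGATGG), and the muscle motifs MEF2 (CTA, any 4 bases, TAG) and E-box (CAGCTG). No searched motif contains another. RefSeq promoters were found for 35 of the 47 names, with 38 promoters in all. NRF1 matches stood in 26.3% of the 38, against 4.60% of all 32851 promoters, and ETS matches in 31.6% against 8.86%. Together they marked 18 of the 35 genes, and 4 genes had matches of both kinds. YY1 matches stood in 7.89% against 6.34%, MEF2 in 2.63% against 3.69% and E-box in 5.26% against 16.3%. Among the genes printed, Cox6a1 had NRF1 matches starting 162 and 117 bases and an ETS match 16 bases before the start, and Sdhd had an NRF1 match 79 and an ETS match 46 bases before it. Cox8b had an E-box match 19 bases before the start, and Cox7a1 and Cox7a2 had no match of these letters in the window. Cox8a had an ETS match that did not lie wholly within the printed bases, so it is not marked. A match of letters is a description of the sequence and not evidence of a bound site.

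Complex V had 17 members tested, with log2 fold changes of -0.09 to 0.19 and a median of 0.02. None of the 17 passed the threshold, against 9.71% of all tested genes in either direction. The catalytic head subunits Atp5a1 and Atp5b, which carry the nucleotide sites, were the most counted members. Atp5a1 was at 1118 ± 56.7 CPM in NR mice and 1105 ± 75.6 CPM in Vehicle mice, and Atp5b at 1529 ± 82.8 and 1467 ± 87.8 CPM (SD, n = 5 each), with log2 fold changes of 0.02 (SE 0.07) and 0.06 (SE 0.07). The c-ring subunit, through which protons pass, is made from 3 genes that encode the same mature protein. Of their summed level per kb, Atp5g3 made up 60.5% ± 0.989 in NR and 61.2% ± 1.07 in Vehicle, Atp5g2 25.4% ± 0.987 and 25.3% ± 1.25, and Atp5g1 14.1% ± 0.729 and 13.5% ± 0.451 (SD, n = 5 each). With the length of the principal transcript the order of the 3 genes held and Atp5g1 made up 5.77% and 5.48%. Atp5s had the largest difference of complex V and was also its lowest tested gene (9.74 CPM per kb). It was at 20.1, 24.8, 18.9, 22.4 and 19.6 CPM in NR mice and at 21.9, 17.9, 16.9, 18.2 and 17.7 CPM in Vehicle mice. All 5 NR mice lay above 4 of the 5 Vehicle mice, and Vehicle 1 lay among the NR mice. The log2 fold change was 0.19 (SE 0.10, 95% interval -0.02 to 0.41, adjusted p = 0.551, edgeR), and without Vehicle 1 it was 0.27 (unadjusted p = 0.0163, adjusted p = 0.3005, edgeR). For Atp5o (OSCP, the link between head and stalk; log2 fold change 0.10, SE 0.06), 47.9% of exon bases are shared with other genes.

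The members were among the more highly expressed genes of the cochlea. Ranked by CPM per kb among all 18329 tested genes, the 42 members that are not muscle isoforms had a median percentile of 97.7, and 39 of them lay above the 90th. Among tested members the range was widest within complex IV, from 704 CPM per kb for Cox8a down to 5.04 for Cox6a2, and the lowest tested gene that is no muscle isoform was Cox6b2 at 26.5. Complex V ranged from 355 CPM per kb for Atp5a1 to 9.74 for Atp5s, complex III from 210 for Uqcr10 to 59.4 for Uqcrc2, and complex II from 104 for Sdha to 39.2 for Sdhc. These levels use the gene lengths in the files, which sum all exons. With the principal transcript, a length chosen after the data were seen, Uqcrh (344 CPM per kb) and Atp5b (782) became the highest of complexes III and V, and the lowest tested gene of each complex stayed the same.

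**Figure D4:**
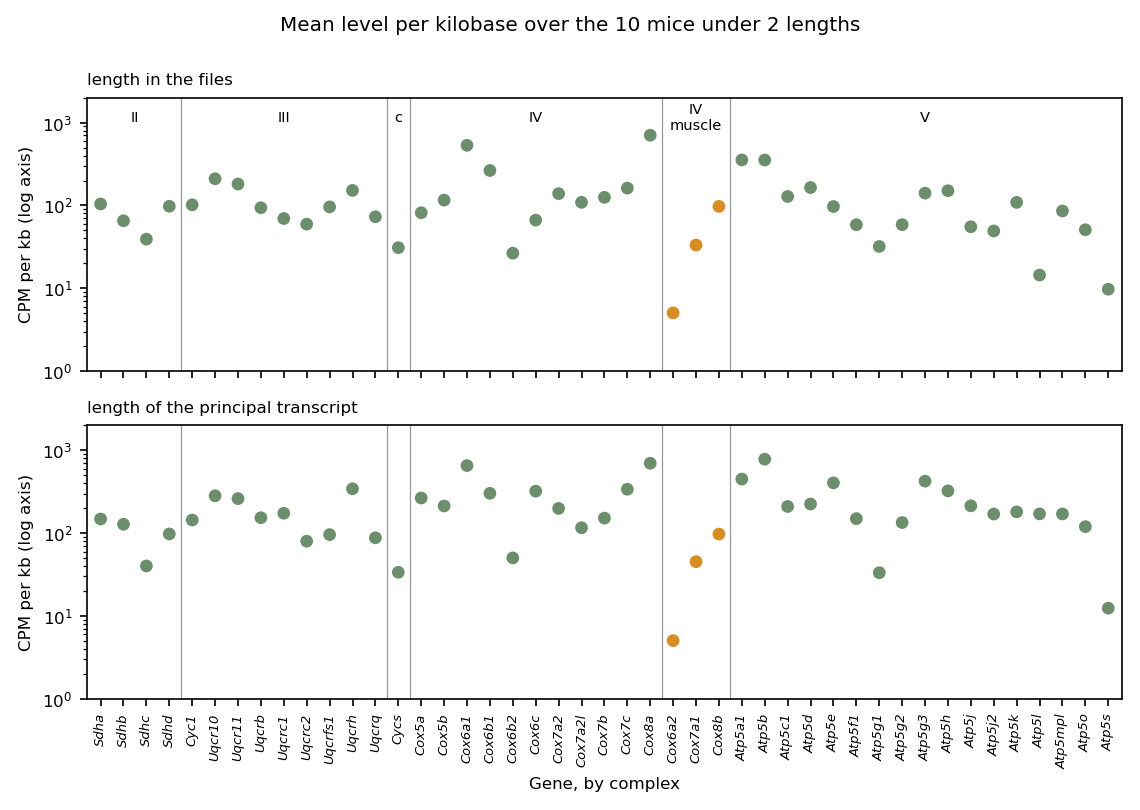
Mean CPM per kb over the 10 mice (y axis, log scale) of the 45 tested members by complex (x axis), with the gene length in the files (top) and the length of the principal transcript (bottom); muscle isoforms are orange. Cox8a is the highest complex IV gene under each length, at 704 and 698 CPM per kb, and Cox6a2 the lowest at 5.04.

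The median spread between mice was lower for these genes than over all tested genes. The median coefficient of variation of CPM over the 42 members was 6.20% in NR mice and 6.72% in Vehicle mice, against 11.4% and 14.1% over all tested genes. It was 7.08% and 8.90% over the 9316 genes between the lowest and highest member (19.9 to 1498 CPM). That range is wide and the genes in it were not matched to the members by level. Several mice lay on the same side of the mean in every complex. The mean log2 level of the 42 members relative to the mean of all mice was -0.06, 0.04, 0.08, 0.05 and -0.05 in NR 1 to NR 5 and -0.07, 0.06, -0.07, -0.08 and 0.07 in Vehicle 1 to Vehicle 5. NR 3 was the highest mouse for complexes III and V and Vehicle 5 for complex IV, and NR 1 and Vehicle 1 were below the mean for complexes II, III, IV and V and for Cycs. Each group thus held high and low mice, and the group means differed by 0.03, less than the SD of 0.063 in NR and 0.078 in Vehicle mice. The summed level of the 42 members was 9687 ± 398 CPM in NR and 9519 ± 530 CPM in Vehicle mice (SD, n = 5 each).

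**Figure D5:**
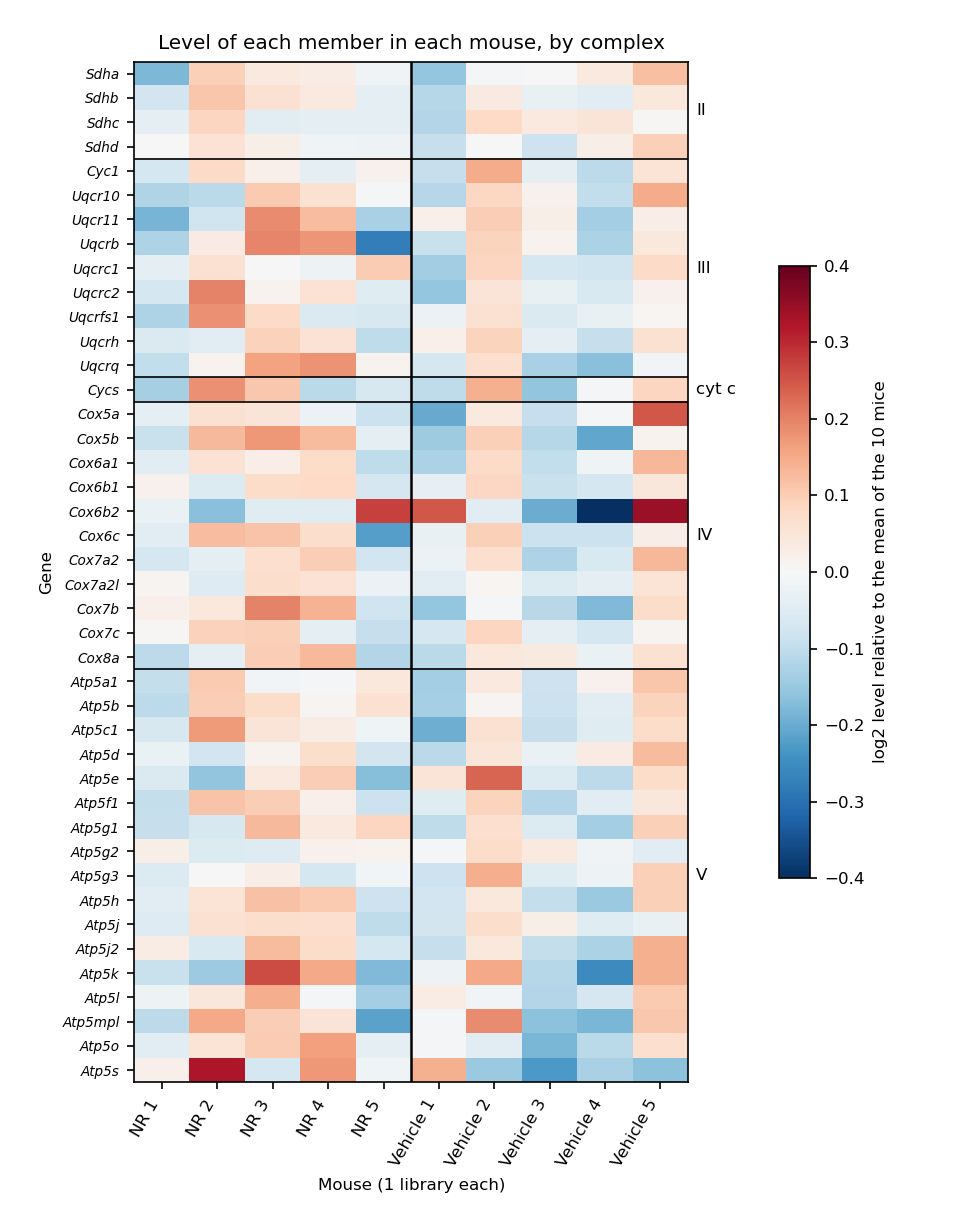
Log2 level of each of the 42 tested members that are not muscle isoforms (rows, by complex) in each mouse (columns), relative to its mean over the 10 mice; red is higher, blue is lower, and the colour saturates at the ends of the scale. Columns such as NR 1 and Vehicle 1 are mostly blue and NR 3, Vehicle 2 and Vehicle 5 mostly red, so the mice differ within each group.

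Of the subunits of complexes III, IV and V made in mitochondria, mt-Co2, which takes electrons from cytochrome c, was higher in NR at the unadjusted threshold (log2 fold change 0.28, SE 0.11, adjusted p = 0.476, edgeR). The 5 others had values of 0.08 to 0.27 that missed it. The mean of mt-Co2 was 57.7 CPM in NR and 47.5 CPM in Vehicle mice, far below mt-Co1 at 11096 and 10205 CPM. The value of 0.27 was that of mt-Atp8 (SE 0.30), at 1.31 and 1.09 CPM. The reason for the unequal levels of these genes was not tested. The complex IV subunits outside the rule missed the unadjusted threshold. Cox4i1 had a log2 fold change of 0.05 (SE 0.07), Ndufa4 one of 0.07 (SE 0.06), and Cox4i2, an isoform known from lung, one of -0.42 (SE 0.19, adjusted p = 0.519, edgeR). Of all tested genes, 9.71% passed the unadjusted threshold in either direction. Among assembly factors it was passed by 0 of 4 for complex II and 0 of 6 for complex III. For complexes IV and V, 1 of 21 and 1 of 5 passed it. These were Cox18, which inserts a complex IV core subunit into the membrane (log2 fold change 0.21, SE 0.07), and Atpaf2, a chaperone of the ATP synthase head (-0.14, SE 0.06). Of 15 regulators of respiratory genes, Gabpb2, a partner of the ETS factor Gabpa, was lower at that threshold (-0.19, SE 0.06, adjusted p = 0.436, edgeR). Other mitochondrial gene groups lay close by. The median log2 fold change was 0.05 over 37 genes of complex I, 0.03 over 77 of the mitochondrial ribosome and 0.10 over 13 of the mitochondrial genome. Past the threshold were 1, 0 and 1 of these genes (2.70%, 0% and 7.69%, against 9.71% of all tested genes).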

How the data were processed

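RNA-seq of whole cochlea was analysed from 10 mice, 5 NR and 5 Vehicle, grouped by their labels. The deposited files hold raw read counts per gene, which the authors made by mapping fastp-filtered reads to mm10 with STAR (2.6.1d) and counting with featureCounts (1.5.0), without strand. The study's methods give the default mode for counting, so reads from shared exons or near-identical copies may be lost or assigned to the wrong gene. The counts were scaled with TMM factors, filtered with filterByExpr, and tested with edgeR (4.0.16) by its quasi-likelihood test on group, with Benjamini-Hochberg adjustment over 18329 genes. DESeq2 (1.42.0) was an alternative. CPM per kb divides by the gene length in the files. Isoform ratios were compared by exact permutation tests. Scripts were tested on simulated data. The total count per library sets the counting error, and p-values rest on the spread between mice. Coordinates of promoters and their sequences are from RefSeq, GRCm38.p6. The members and lists were chosen with earlier results of these data known. Per-mouse values were given for the muscle isoforms and their partners, members at an unadjusted p of 0.05, the 5 largest log2 fold changes, and the highest and lowest gene per kb of each complex; Cyc1, Uqcrfs1, Uqcrq, Cycs, Atp5b, Atp5o, Cox6b2 and the Atp5g genes were named after their values were seen.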

Additional observations from a re-analysis of the deposited data

Results flagged for a closer look

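In 4 of 90 combinations of a tested member and a group, 1 mouse lay far from the other 4 of its group by Dixon's criterion (0.71 of the range), which chance alone gives in about 1 of 20 groups. Sdhc was at 135 CPM in NR 2, against 123.8 to 124.1 CPM in the other NR mice. Cox6b2 was at 35.5 CPM in NR 5, against 26.2 to 28.9 CPM. Cox6a2 was at 1.89 CPM in Vehicle 1, against 0.265 to 0.728 CPM in the other Vehicle mice, and Atp5s was at 21.9 CPM in Vehicle 1, against 16.9 to 18.2 CPM.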

How the results depend on the processing

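DESeq2 called 102 genes after adjustment. The number of genes past an unadjusted p of 0.05 was 1414 higher without a filter on low counts. With total counts it was 1188 higher, against 886 in the main fit, and 574 lower. Without NR 3 and NR 5 together, chosen after seeing the data, it was 460 higher and 383 lower. Members past it were 4 higher with total counts (Uqcrq, Cox5b, Cox7b and Cox6a2), 0 higher with CPM above 1 in at least 5 samples, where Cox6a2 has no value, and 1 lower (Cox7a1) with DESeq2 (-0.35) and without NR 3 and NR 5 (-0.49). Without those mice 1 member, Atp5s, was higher, and Cox6a2 was 0.24.

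Deviations of same-numbered mice from their group means had r from -0.220 to 0.170 over genes. The mice were treated as unpaired, and whether the numbers reflect a shared batch was not tested. With the replicate block 0 members were higher and 1 was lower, with Cox6a2 at 2.18 (unadjusted p = 0.117, edgeR) and Cox7a1 at -0.38 (unadjusted p = 0.0205, adjusted p = 0.529, edgeR).

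Small log2 fold changes changed sign. With total counts they were 0.024 for Cox7a2, 0.021 for Cox8a, 0.012 for Cox8b, 0.020 for Sdha, 0.00093 for Sdhc and 0.0056 for Uqcr10. Without a filter they were 0.011 for Cox7a2, 0.0087 for Cox8a, 0.00036 for Cox8b and 0.0086 for Sdha, and with the stricter filter 0.0068, 0.0047 and 0.0043 for Cox7a2, Cox8a and Sdha. Without NR 3 and NR 5 they were 0.0088 for Cox7a2, 0.0078 for Cox8a, 0.13 for Cox8b and 0.0030 for Sdhc, the Cox8b to Cox8a ratio was 0.093, and r with the muscle markers was -0.084 for Cox7a1 and 0.093 for Cox8b.

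Leaving out 1 mouse at a time gave 669 to 1414 genes higher, 484 to 1059 lower and 0 to 1 after adjustment, and 1 to 4 members higher and 0 to 1 lower. The most members higher came without Vehicle 2, and Cox7a1 was lower without NR 3 or Vehicle 1. Log2 fold changes ranged from 2.23 to 3.61 for Cox6a2, -0.46 to -0.22 for Cox7a1, -0.12 to 0.12 for Cox8b, -0.017 to 0.043 for Cox6a1, -0.022 to 0.032 for Cox7a2, -0.032 to 0.031 for Cox8a, -0.037 to 0.043 for Sdha, -0.051 to 0.0028 for Sdhc, -0.046 to 0.015 for Uqcr10 and -0.0090 to 0.049 for Atp5a1. They ranged from 0.14 to 0.27 for Atp5s, 0.10 to 0.19 for Cox5b and 0.11 to 0.18 for Cox7b. The ratio of Cox8b to Cox8a ranged from -0.16 to 0.073, and r with the markers from -0.41 to 0.16 for Cox7a1 and -0.50 to 0.12 for Cox8b. The cause of these changes was not tested. Genes at few reads, such as Cox6a2 at 6 to 18 reads in 6 libraries, are limited by depth.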
